A study of Mus musculus with 10 samples.

Results

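The MHC class I antigen presentation genes followed here, in neutrophils from grafted mouse tumours, were H2-K1, H2-D1, B2m, Tap1, Tap2, Tapbp, Psmb8, Psmb9, Psmb10 and Nlrc5. They were taken as the entries of the deposited count table whose Ensembl identifiers carry these symbols in GENCODE M21. All 10 were found among the 55385 mouse genes of the table, and all 10 were among the 11274 genes tested, whose mean was 5 CPM (counts scaled to library size) or more. On treatment the 10 genes were higher in the neutrophils of both kinds of tumour, between 1.84-fold and 3.17-fold in control tumours and between 1.63-fold and 3.18-fold in Sox2Hi tumours.

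MHC class I molecules show short peptides from the inside of a cell to CD8 T cells. The peptides are cut by the proteasome, carried into the endoplasmic reticulum by the TAP transporter, and loaded there onto a heavy chain paired with the light chain beta-2 microglobulin. Interferon gamma is the best known inducer of the pathway: it replaces the catalytic subunits of the constitutive proteasome with those of the immunoproteasome, and it raises NLRC5, the transactivator of MHC class I genes. Neutrophils are mainly known as phagocytes, but like other nucleated cells they carry MHC class I.

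The neutrophils came from squamous cell carcinomas grown from grafted cells on CatchupIVM-red mice, in which a knock-in at the neutrophil gene Ly6g drives Cre and red Tomato and a further Cre-activated Tomato allele strengthens the signal. Tomato+ cells were isolated and sequenced in bulk. The grafts were parental Sox2low cells, called control here, or Sox2Hi cells. The descriptions of all 10 libraries carry C57, and those of the control graft carry GFP in the place of Sox2. Sox2 is a stem cell transcription factor. Whether the Sox2Hi cells are 1 clone is not stated. Tumours were left naive or, once established, were treated with anti-PDL1/CD40 agonist, an immunotherapy combination. Each graft gave 3 naive and 2 treated libraries, all from hosts with the same reporter. The study asked whether Sox2 in tumour cells lowers the neutrophil response to interferons. The labels do not say that replicates came from separate mice, or whether mice were pooled, so p-values measure the spread between these libraries. The age, sex and doses are not given in the sources used here.

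Promoters of the 10 genes were looked up in RefSeq (GRCm38.p6), and 8 of the 10 had an entry. Classical MHC class I promoters and that of B2m are known to share an X box and a Y box, on which RFX proteins, CREB/ATF and NF-Y assemble and to which NLRC5 is recruited. H2-K1, H2-D1 and B2m each held the X2 core TGACG and the Y core ATTGG on the strand of the gene with exactly 20 bases between them. The spacing was noticed after the sequences had been seen. These stretches are shown because the 3 genes encode the subunits of the class I molecule itself, with the cores in capitals, 5′ to 3′ on the strand of the gene.
H2-K1, chr17:34000359-34000388, minus strand: TGACGcgcagtcagctcttacccccATTGG
H2-D1, chr17:35262993-35263022, plus strand: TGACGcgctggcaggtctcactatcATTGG
B2m, chr2:122147609-122147638, plus strand: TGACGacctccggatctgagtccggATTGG
The stretch began 41 bases upstream of the nearer RefSeq start of H2-K1, 101 upstream of that of H2-D1 and 78 upstream of that of B2m. The H2-D1 stretch lies within a 5′ untranslated exon of a longer GENCODE transcript. H2-K1 and H2-D1 had 23 of the 30 bases in common, H2-K1 and B2m had 13, and H2-D1 and B2m had 12. These counts include the 5 bases of each core, which are the same because the stretches were picked for them. The same arrangement was found in 30 of 32851 mouse promoter windows of 250 bases (0.0913%), from 26 genes. The cores alone were common: TGACG, searched on both strands, was in 17.8% of windows and in those of H2-K1, H2-D1, B2m, Tap1 and Psmb9, and ATTGG was in 33.8% and in those of the same 5 genes and Tapbp.

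The whole windows upstream of H2-K1 and B2m also show where interferon-type letters lie, so they are printed here with the X2 and Y cores and the interferon-type match in capitals.
H2-K1, chr17:34000348-34000597, minus strand: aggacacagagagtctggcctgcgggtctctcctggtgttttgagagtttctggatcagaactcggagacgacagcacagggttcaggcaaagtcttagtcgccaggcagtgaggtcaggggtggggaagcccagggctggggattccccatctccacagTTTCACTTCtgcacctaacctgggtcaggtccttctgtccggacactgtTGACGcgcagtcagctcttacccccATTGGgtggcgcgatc
B2m, chr2:122147437-122147685, plus strand: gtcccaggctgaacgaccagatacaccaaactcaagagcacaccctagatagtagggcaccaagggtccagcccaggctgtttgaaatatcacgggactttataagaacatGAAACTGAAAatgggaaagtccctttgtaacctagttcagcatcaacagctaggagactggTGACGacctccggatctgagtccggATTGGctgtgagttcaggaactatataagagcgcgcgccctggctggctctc
B2m held, on the strand of the gene, the interferon-stimulated response element, here GAAA, any 2 bases and GAAA again, which 2.98% of windows held on either strand. H2-K1 and H2-D1 held the shorter form GAANNGAAA on the opposite strand, and 6.31% of windows held it on either strand. The motifs were counted separately. A match describes letters only and is not a measured binding site.

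Total counts ran from 13815734 to 22986193 per library. CPM values here are scaled with TMM factors, a correction for RNA composition, taken from the 11274 expressed genes, and this is called the expressed-gene scaling. Factors from all 29648 genes that pass a looser filter on low counts are called the all-gene scaling. Both are given because they place the genes differently. The background expected from reads over silent genes made up 6.36% of counts in naive and 1.66% in treated libraries of control tumours, and 3.78% and 4.49% in those of Sox2Hi tumours (group means). The median log2 change over all tested genes on treatment in control tumours was -0.18 with the first scaling and -0.30 with the second. Over all libraries together such background took 7.13% of the counts of Nlrc5, 4.24% of those of Tap2, 2.91% of those of Tap1 and under 1% for each other member. The highest share in a single library was 17.5% for Nlrc5, 13.3% for Tap2, 7.85% for Tap1, 2.60% for Psmb9, 1.11% for Psmb10 and under 1% for each other member.

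The label neutrophil was checked against 10 markers, all of them detected in every group. In control tumours they summed to 1.19% to 1.95% of counts in naive and to 3.66% to 3.84% in treated libraries, and in Sox2Hi tumours to 1.08% to 1.56% and to 1.99% to 2.05%. Much of the sum was Il1r2, at 9087 to 15207 CPM in naive and 15307 to 19619 in treated libraries of control tumours, and at 8455 to 11267 and 11399 to 11441 in Sox2Hi tumours. S100a8 moved further, from 1218 to 1910 CPM to between 7539 and 10217 in control and from 914 to 1774 to between 3582 and 3834 in Sox2Hi tumours. In these CPM values all 10 markers were higher in treated than in naive libraries of each tumour without overlap. Ly6g itself was low, at 1.74 to 3.502 CPM before and 11.4 to 17.8 after treatment in control tumours, and at 1.87 to 3.19 and 5.80 to 10.3 in Sox2Hi tumours. The 8 keratinocyte and tumour markers summed to 0.111% to 0.248%, 0.0666% to 0.122%, 0.173% to 0.227% and 0.109% to 0.159% in the same order. Among them the keratin Krt8 was at 519.6 to 722, 239 to 299.8, 992 to 1356 and 538 to 775 CPM. In these CPM values Krt8, Epcam and Cdh1 were higher in Sox2Hi than in control tumours at each treatment without overlap, and Krt5, Krt14, Krt6a, Krt17 and Trp63 overlapped. The 8 T and NK cell markers summed to 0.00468% to 0.00807%, 0.0108% to 0.0372%, 0.00326% to 0.0105% and 0.0140% to 0.0220%. Nkg7 and Gzmb were higher in treated libraries of each tumour without overlap, Nkg7 at 14.4 to 22.9 CPM in naive and 61.0 to 233 in treated control tumours, while Cd3e, Cd3d and Trac overlapped. Cd4 was lower in treated control tumours, at 2.85 to 3.57 before and 1.55 to 2.10 CPM after treatment. In Sox2Hi tumours Cd4 was higher after treatment, at 2.16 to 2.48 before and 3.00 to 3.44 CPM after. Cd8a overlapped in control tumours, at 5.99 to 8.47 and 4.77 to 21.3 CPM. It was higher in treated Sox2Hi tumours, at 3.74 to 7.55 and 11.3 to 17.1 CPM. The 6 fibroblast and endothelial markers summed to 0.0205% to 0.0639%, 0.00633% to 0.00811%, 0.0330% to 0.0530% and 0.00885% to 0.0191%, and the 3 erythroid markers to 0.0302% to 0.0762%, 0.00257% to 0.0154%, 0.0136% to 0.0294% and 0.00151% to 0.00311%. Both lists were lower in treated than in naive libraries of each tumour without overlap. The 4 B and plasma cell markers summed to 0.00602% to 0.0120%, 0.00350% to 0.0120%, 0.0148% to 0.0682% and 0.00239% to 0.0117%, highest in Sox2Hi naive libraries. The 10 macrophage and dendritic cell markers, at 0.0242% to 0.0469% over all groups, overlapped between them as a sum. Some single markers did not, and among these Cd209a was lower in treated libraries, at 12.1 to 24.4 and 0.145 to 1.73 CPM in control and at 9.54 to 15.8 and 0.956 to 2.80 in Sox2Hi tumours. Csf1r was higher, at 12.6 to 18.4 and 28.3 to 33.9 CPM in control and at 16.6 to 20.3 and 27.5 to 40.4 in Sox2Hi tumours. Adgre1 was lower in treated Sox2Hi tumours, at 53.4 to 69.5 and 29.8 to 45.3 CPM, and overlapped in control tumours. Flt3 was lower in treated control tumours, at 2.12 to 4.48 and 1.30 to 1.43 CPM. It was higher in treated Sox2Hi tumours, at 2.12 to 2.32 and 2.86 to 3.51 CPM. The others of this list overlapped between treatments in each tumour. No marker of these lists was at 0 in a group. The neutrophil and the T and NK lists were higher in treated than in naive libraries of each tumour, as were the genes described next. The part of these lists in the results that follow, between treatments or between grafts, was not tested. In bulk RNA a change in the number of cells of a type and a change in RNA per cell cannot be told apart.

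The members differed widely in level. Per kilobase of the principal transcript, B2m, the light chain shared by all class I molecules, was at 4719 ± 30 CPM per kb in control naive (SD, n = 3). H2-D1 at 391 ± 56, H2-K1 at 371 ± 50.03 and Psmb8 at 301 ± 25.3 followed, and the libraries of neighbours among these 3 overlapped. Tapbp, Psmb10 and Psmb9 formed the next step, at 77.4 ± 11.7, 66.0 ± 11.8 and 65.7 ± 8.29, again with overlap. Tap1 stood apart from its neighbours at 13.6 ± 2.72. Tap2 at 4.99 ± 1.58 and Nlrc5 at 3.71 ± 0.25 were the lowest and overlapped. In control treated libraries the order differed, since Psmb9 at 208 ± 36.4 CPM per kb (n = 2) lay above Tapbp, at 165 ± 10.3 and Psmb10 at 122 ± 31.0.

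**Figure D1:**
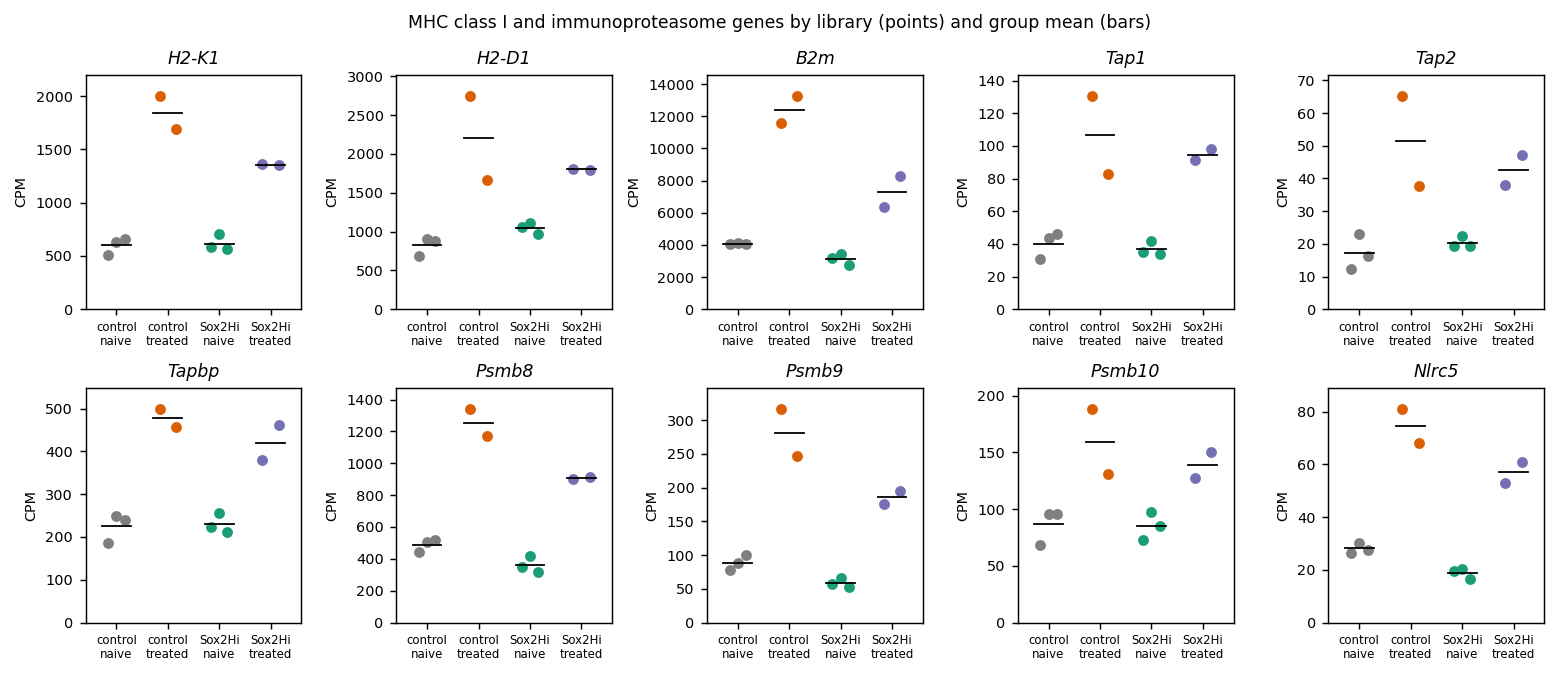
Scaled counts (CPM, vertical axis, linear, from 0) of each gene in each of the 10 libraries (points) with the group mean (horizontal lines). In every panel all treated libraries lie above all naive libraries of the same tumour type.

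Treatment in control tumours was compared first. Every one of the 10 genes was higher in both treated libraries than in all 3 naive ones, a pattern that 29.6% of the 11274 tested genes showed. All 10 were called higher by edgeR's quasi-likelihood test with Benjamini-Hochberg adjustment over all tested genes, against a background of 24.1% called higher. Their median log2 change was 1.42, where the median over all tested genes was -0.18. All 10 were again called with the all-gene scaling, against 18.7%, and their median was 1.96. In Sox2Hi tumours all 10 were also called higher, against a background of 15.0%, and their libraries did not overlap, against 37.0% of tested genes. The median there was 1.18, beside 0.09 over all tested genes. In Sox2Hi tumours 6 of the 10 were called with the all-gene scaling, against 1.79%, and the median was 0.91.

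The heavy and light chains had the highest levels with Psmb8. H2-K1, a classical heavy chain (ENSMUSG00000061232, chromosome 17, 33996017 to 34000347), was at 508, 633 and 659 CPM in the naive and at 2002 and 1688 in the treated libraries of control tumours. In Sox2Hi tumours the naive libraries had 582, 703 and 566 and the treated ones 1358 and 1352. Naive libraries of the tumours overlapped, and treated libraries were higher in control tumours. The rise was 1.62 ± 0.17 on the log2 scale in control tumours (SE, adjusted p = 0.00012 by edgeR's quasi-likelihood test) and 1.14 ± 0.17 in Sox2Hi tumours (adjusted p = 0.00299).

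H2-D1, the other classical heavy chain measured (ENSMUSG00000073411, chromosome 17, 35262730 to 35267499), was at 689, 907 and 872 CPM in the naive and at 2747 and 1663 in the treated libraries of control tumours. Values in Sox2Hi tumours were 1062, 1114 and 972 naive and 1803 and 1796 treated. The control treated libraries were far apart, and only 1 of them lay above both Sox2Hi treated ones. H2-D1 rose by 1.42 ± 0.22 in control tumours (adjusted p = 0.000537) and by 0.78 ± 0.22 in Sox2Hi tumours (adjusted p = 0.0291), and the second call was lost with the all-gene scaling (adjusted p = 0.173).

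B2m (ENSMUSG00000060802, chromosome 2, 122147686 to 122153083) was at 4046, 4088 and 4042 CPM in the naive and at 11568 and 13263 in the treated libraries of control tumours. Sox2Hi tumours gave 3202, 3449 and 2766 in naive and 6359 and 8265 in treated libraries. Every Sox2Hi library lay below every control library of the same treatment. The rise was 1.61 ± 0.20 in control tumours (adjusted p = 0.000202) and 1.22 ± 0.20 in Sox2Hi tumours (adjusted p = 0.00369). Class I genes of the chromosome 17 cluster are near copies of each other, so reads that the authors' counting split among H2-K1, H2-D1 and their relatives leave each heavy chain's level uncertain.

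The peptide transporter and its loading partner rose as well. Tap1 (ENSMUSG00000037321, chromosome 17, 34187553 to 34197225), which with Tap2 forms the transporter, was at 30.9, 43.4 and 45.8 CPM in the naive and at 131 and 83.0 in the treated libraries of control tumours. In Sox2Hi tumours the naive libraries had 35.3, 41.9 and 34.0 and the treated ones 91.3 and 97.9. Treated libraries of the tumours overlapped. Tap1 rose by 1.42 ± 0.22 (adjusted p = 0.000601) and by 1.35 ± 0.22 (adjusted p = 0.00394).

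Tap2 (ENSMUSG00000024339, chromosome 17, 34203527 to 34216321) was at 12.2, 22.97 and 16.4 CPM in the naive and at 65.2 and 37.8 in the treated libraries of control tumours. In Sox2Hi tumours the naive libraries had 19.3, 22.3 and 19.2 and the treated ones 38.1 and 47.2. Its change had the largest standard error of the 10. Its rise was 1.58 ± 0.27 in control tumours (adjusted p = 0.000965) and 1.07 ± 0.27 in Sox2Hi tumours (adjusted p = 0.0225), the latter not called with the all-gene scaling (adjusted p = 0.0982).

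Tapbp, or tapasin (ENSMUSG00000024308, chromosome 17, 33915899 to 33929292), holds the empty class I molecule beside the transporter. It was at 186, 248 and 239.6 CPM in the naive and at 499 and 456 in the treated libraries of control tumours. Values in Sox2Hi tumours were 223, 256 and 211 naive and 379 and 461 treated. The treated libraries of the tumours overlapped. The rise was 1.09 ± 0.17 (adjusted p = 0.000609) and 0.87 ± 0.17 (adjusted p = 0.00849), and the Sox2Hi call was lost with the all-gene scaling (adjusted p = 0.0894).

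The immunoproteasome has 3 catalytic subunits of its own, and each takes the place of a constitutive one. Psmb8, which replaces Psmb5 (ENSMUSG00000024338, chromosome 17, 34197721 to 34201454), was at 443, 504 and 521 CPM in the naive and at 1339.5 and 1170.3 in the treated libraries of control tumours. Sox2Hi tumours gave 350.1, 420.1 and 319 in naive and 900.2 and 914 in treated libraries. Sox2Hi libraries were below control libraries at both treatments. The rises of 1.36 ± 0.16 and 1.32 ± 0.16 (adjusted p = 0.000183 and 0.000875) differed by less than their errors.

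Psmb9, which replaces Psmb6 (ENSMUSG00000096727, chromosome 17, 34181987 to 34187764), was at 78.2, 87.5 and 101 CPM in the naive and at 316 and 247 in the treated libraries of control tumours. In Sox2Hi tumours the naive libraries had 57.7, 65.5 and 52.2 and the treated ones 176 and 195. As for Psmb8, the Sox2Hi libraries lay below. Psmb9 rose by 1.66 ± 0.17 in control (adjusted p = 8.63e-05) and 1.67 ± 0.17 in Sox2Hi (adjusted p = 0.000339). The gene models of Psmb9 and Tap1 run in opposite directions and overlap by 212 bases, and since strandedness is not stated, reads there cannot be told apart.

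Psmb10, which replaces Psmb7 (ENSMUSG00000031897, chromosome 8, 105935735 to 105938444), was at 68.7, 95.4 and 95.6 CPM in the naive and at 188 and 131 in the treated libraries of control tumours. In Sox2Hi tumours the naive libraries had 72.4, 97.2 and 85.1 and the treated ones 128 and 149.9. At each treatment the libraries of the tumours overlapped. It rose by 0.88 ± 0.21 in control (adjusted p = 0.00479) and by 0.71 ± 0.21 in Sox2Hi tumours (adjusted p = 0.0368), and the Sox2Hi call was lost with the all-gene scaling (adjusted p = 0.281). With library totals the change in control tumours was 0.37 and not called (adjusted p = 0.155), where 11.2% of tested genes were called higher.

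Nlrc5, the transactivator (ENSMUSG00000074151, chromosome 8, 94434356 to 94527272), was at 26.5, 30.3 and 27.6 CPM in the naive and at 80.9 and 68.0 in the treated libraries of control tumours. Values in Sox2Hi tumours were 19.7, 20.4 and 16.4 naive and 53.0 and 60.9 treated. Sox2Hi libraries were lower at each treatment. It rose by 1.40 ± 0.16 (adjusted p = 0.00014) and by 1.60 ± 0.16 (adjusted p = 0.000317). A set of 7 members, H2-K1, H2-D1, Tap1, Tap2, Tapbp, Psmb8 and Psmb9, lie within chromosome 17 from 33915899 to 35267499, and B2m, Psmb10 and Nlrc5, which rose too, lie on chromosomes 2 and 8.

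**Figure D2:**
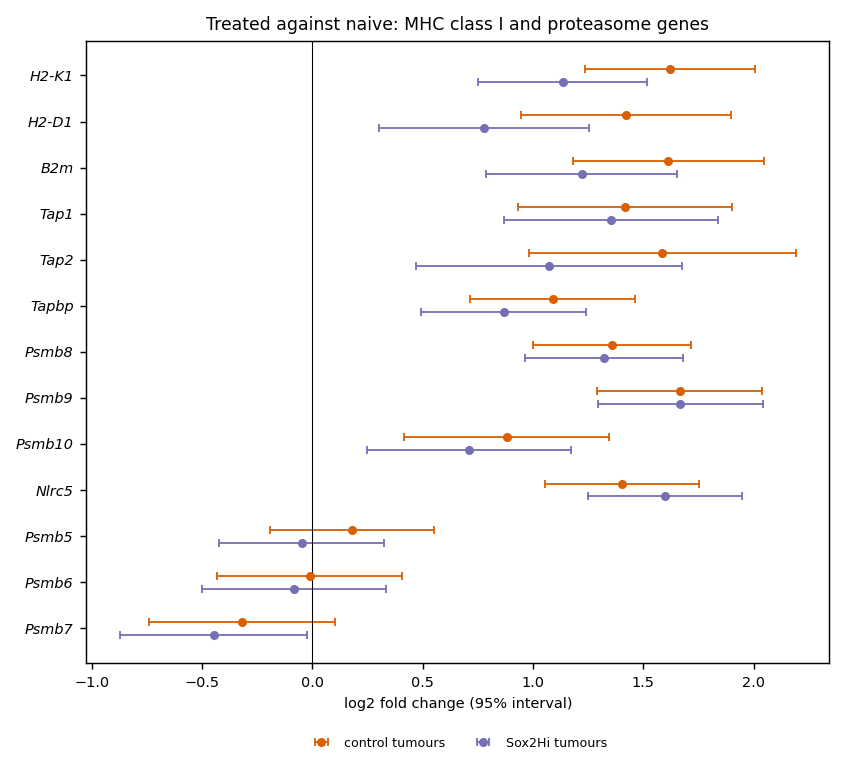
Log2 fold change of treated against naive (horizontal axis) with its 95% interval, in control and in Sox2Hi tumours, for the 10 genes and for the constitutive subunits Psmb5, Psmb6 and Psmb7. All 20 intervals of the 10 genes lie above 0, and 5 of the 6 of the constitutive subunits cross it.

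In Sox2Hi tumours the count of called members depended on single libraries. Without Sox2Hi treated replicate 2 it fell to 4, namely H2-K1, Psmb8, Psmb9 and Nlrc5, against 1.61% of tested genes called higher. It was 7 without Sox2Hi naive replicate 1 or 3, against 11.7% and 4.81%, 8 without Sox2Hi treated replicate 1, against 9.42%, and 9 without Sox2Hi naive replicate 2, against 8.73%. With library totals it was 7, against 5.94%, and with RLE factors 8, against 9.27%. It was 9 with no filter or with the background subtracted, against 2.71% and 10.8%. In control tumours all 10 calls held when any 1 library was left out, where at least 20.9% of tested genes were called higher.

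A ratio of read counts within a library does not depend on the scaling. In control tumours Psmb8/Psmb5 was 9.08, 12.95 and 9.42 in naive and 26.2 and 20.6 in treated libraries, and in Sox2Hi tumours it was 7.78, 9.29 and 6.18, and 20.5 and 19.2. Psmb9/Psmb6 was 0.162, 0.234 and 0.192, then 0.818 and 0.469, then 0.143, 0.164 and 0.111, and then 0.462 and 0.467 in the same order. Psmb10/Psmb7 was 0.527, 1.02 and 0.649, then 2.04 and 1.23, then 0.631, 0.850 and 0.632, and then 1.46 and 1.66. For each pair the treated libraries lay above the naive ones of their tumour.

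Across both tumours the treated ratio was 2.41-fold the naive one for Psmb8/Psmb5, 3.28-fold for Psmb9/Psmb6 and 2.24-fold for Psmb10/Psmb7. Each had p = 0.01 in a two-sided exact permutation test within tumours, the smallest value that its 100 arrangements can give, and 0.02 after Benjamini-Hochberg adjustment over 6 ratios. Without any 1 Sox2Hi naive library the exact permutation test gave adjusted p = 0.05 for Psmb8/Psmb5 and Psmb9/Psmb6 and 0.0667 for Psmb10/Psmb7. None of these was under 0.05, and with fewer arrangements the smallest p that the test can give is larger. Psmb5, Psmb6 and Psmb7 themselves were not called on treatment, with log2 changes of 0.18, -0.01 and -0.32 in control tumours and -0.05, -0.08 and -0.45 in Sox2Hi tumours. With the all-gene scaling Psmb5 was called higher in control tumours, at 0.71, and the signs of Psmb6 and Psmb7 there turned, to 0.53 and 0.21.

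The transporter subunits were compared in the same way. In control tumours Tap1/Tap2 was 1.89 to 2.80 in naive and 2.00 to 2.199 in treated libraries, and in Sox2Hi tumours it was 1.77 to 1.88 and 2.07 to 2.40. The treated ratio was 1.04-fold the naive one (adjusted p = 0.69, exact permutation test). The ratio of heavy chains to light chain, (H2-K1+H2-D1)/B2m, was 0.296, 0.377 and 0.379 in naive and 0.411 and 0.253 in treated libraries of control tumours. Sox2Hi tumours gave 0.513, 0.527 and 0.556 in naive and 0.497 and 0.381 in treated libraries. Treatment moved it to 0.870-fold (adjusted p = 0.348, exact permutation test). H2-K1/H2-D1 was 1.23-fold higher in treated libraries (adjusted p = 0.045, exact permutation test), although the control treated libraries at 0.729 and 1.02 overlapped the control naive ones at 0.697 to 0.756. Without control treated replicate 2 its log2 change fell from 0.30 to 0.18. On leaving out each naive library in turn its adjusted p ran from 0.05 to 0.1 in the exact permutation test, with fewer arrangements. It was thus not under 0.05 in any of these. The ratio of heavy chains to light chain passed the test without control treated replicate 1, at a log2 change of -0.38 (adjusted p = 0.03, exact permutation test), and was at -0.026 without control treated replicate 2.

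**Figure D3:**
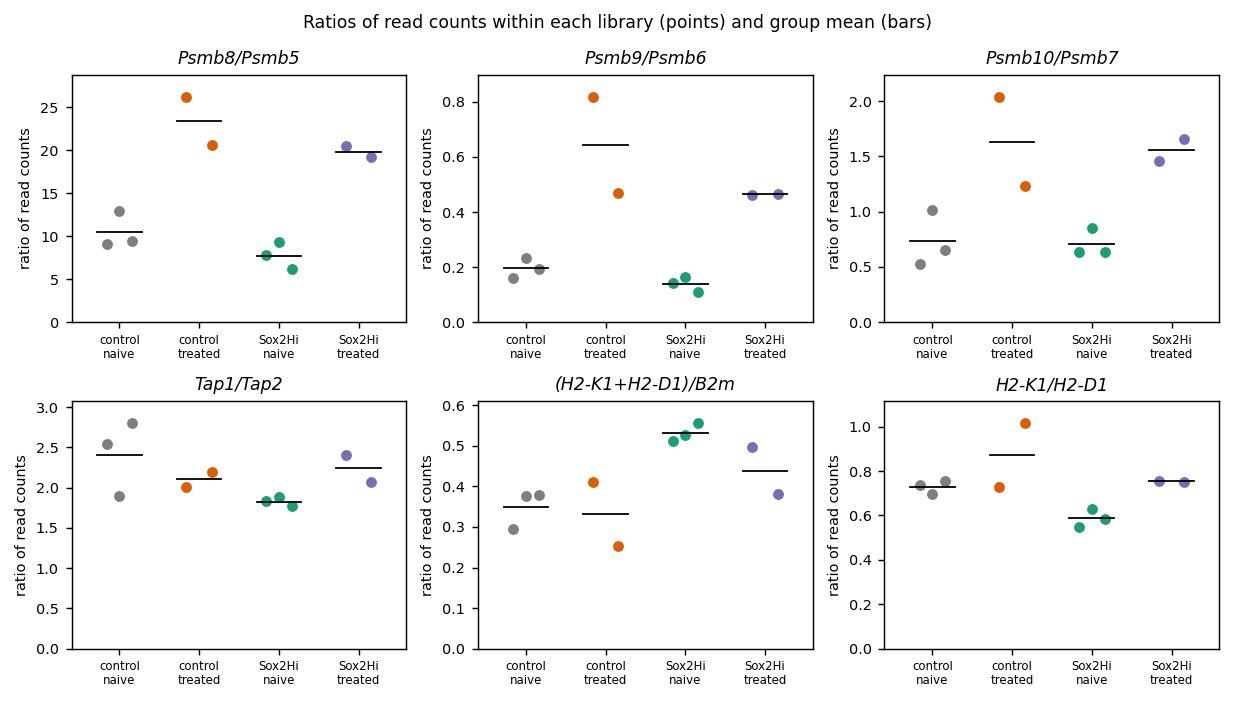
Ratios of read counts (vertical axis, linear, from 0) in each library (points) with the group mean (horizontal lines). The upper row sets each immunoproteasome subunit against its constitutive counterpart, where all treated libraries lie above the naive ones of their tumour, and the lower row shows the transporter and class I chain ratios.

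Sox2Hi tumours were compared with control tumours next, first untreated, in the same libraries that enter the treatment comparisons. Psmb9 and Nlrc5 were lower in Sox2Hi naive libraries, by 0.60 ± 0.15 and 0.58 ± 0.14 on the log2 scale, that is to 0.659-fold and 0.669-fold (adjusted p = 0.0274 and 0.0249 by edgeR's quasi-likelihood test). These 2 of 10 calls stand against 11.9% of tested genes called lower. The other 8 genes were not called, with differences from -0.43 for Psmb8 (adjusted p = 0.0783) to 0.35 for H2-D1 (adjusted p = 0.294). B2m, Psmb8, Psmb9 and Nlrc5 lay below control in every library, 4 of 10 against 21.8% of tested genes, and H2-D1 lay above, 1 of 10 against 10.7%. With the all-gene scaling no member was called by edgeR, where 0.209% of genes were called lower, and the differences of Psmb9 and Nlrc5 were -0.24 and -0.21. The 4 members with an unadjusted p under 0.05 there were higher in Sox2Hi tumours, H2-K1 at 0.41, H2-D1 at 0.72, Tap2 at 0.63 and Tapbp at 0.41. Both calls were also lost with RLE factors (adjusted p = 0.055 for Psmb9 and 0.0601 for Nlrc5), with library totals (0.0822 and 0.0749) and with the naive groups fitted alone. The shares of tested genes called lower under these settings were 6.55%, 6.26% and 0.0266%. The call of Nlrc5 was lost with no filter (adjusted p = 0.051) and with the background subtracted (adjusted p = 0.0534), against 5.17% and 5.53% called lower. DESeq2 called Psmb9 and Nlrc5 lower, against 10.8%. Limma-voom called 5 members, B2m, Psmb9 and Nlrc5 lower, against 24.1%, and H2-D1 and Tap2 higher, against 12.6%. The calls were also lost on leaving out single libraries: both without control naive replicate 2, without any 1 of the Sox2Hi naive libraries or without Sox2Hi treated replicate 2, and 1 of them without control naive replicate 1 or 3 or either control treated library. Over the 10 fits with 1 library left out, 0% to 14.3% of tested genes were called lower.

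The within-library ratios were also set side by side between untreated tumours. The ratio of heavy chains to B2m was 0.513 to 0.556 in Sox2Hi naive and 0.296 to 0.379 in control naive, 1.53-fold, with no overlap. H2-K1/H2-D1 was 0.803-fold, at 0.548 to 0.631 against 0.697 to 0.756, and Tap1/Tap2 was 0.767-fold, at 1.77 to 1.88 against 1.89 to 2.80, both with no overlap. For the 3 ratios with constitutive subunits the naive groups overlapped, Psmb8/Psmb5 at 0.739-fold, Psmb9/Psmb6 at 0.711-fold and Psmb10/Psmb7 at 0.990-fold. After treatment heavy chains to B2m at 1.35-fold, H2-K1/H2-D1 at 0.876-fold and Tap1/Tap2 at 1.06-fold overlapped between tumours. Psmb8/Psmb5 at 0.854-fold and Psmb9/Psmb6 at 0.750-fold lay below control without overlap, but control treated replicate 2 lay only just above. It had 20.6 against 20.5 and 19.2 for Psmb8/Psmb5, and 0.469 against 0.467 and 0.462 for Psmb9/Psmb6. A comparison of 3 against 3 libraries cannot go below p = 0.1 in an exact permutation test, and one of 2 against 2 cannot go even that low, so no call was made.

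After treatment all 10 genes had lower fitted levels in Sox2Hi than in control tumours, with log2 differences from -0.18 for Tap1 to -0.76 for B2m. The libraries of 5 of them, namely H2-K1, B2m, Psmb8, Psmb9 and Nlrc5, did not overlap, against 26.3% of tested genes. B2m (-0.76 ± 0.22, adjusted p = 0.0334) and Psmb9 (-0.60 ± 0.19, adjusted p = 0.0451) were called lower, 2 of 10 against a background of 5.87%. Those 5 genes were called lower with the all-gene scaling, from -0.83 for Nlrc5 to -1.21 for B2m, against 9.57%. DESeq2 called the same 5 lower, against 16.2%. With library totals alone, with the 2 treated groups fitted alone or with the background subtracted none was called, against 1.70%, 1.54% and 2.72% of genes called lower. With a replicate block by description number neither was called (adjusted p = 0.0944 for B2m and 0.132 for Psmb9), against 3.75%. RLE factors gave 3 calls, against 11.6%, and no filter and limma-voom gave 1 each, against 1.05% and 3.89%. None was called without control naive replicate 1, control treated replicate 2, Sox2Hi naive replicate 2 or Sox2Hi treated replicate 1. B2m alone was called without control treated replicate 1, Sox2Hi naive replicate 1 or 3, or Sox2Hi treated replicate 2. In fits with 1 library left out 0.390% to 9.07% of tested genes were called lower.

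**Figure D4:**
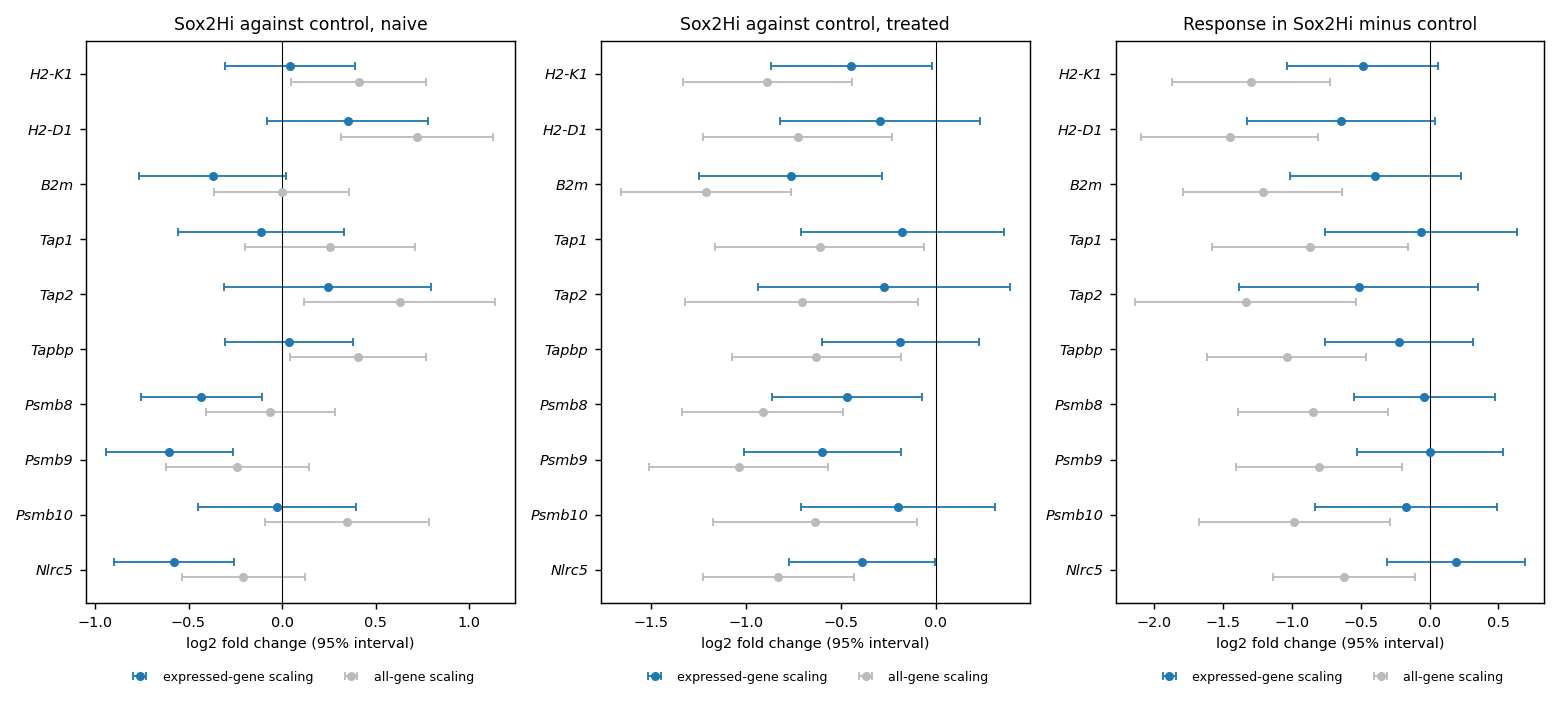
Log2 fold change of Sox2Hi against control in naive and in treated libraries, and the difference between the treatment responses (horizontal axes), each with its 95% interval under both scalings. The all-gene scaling moves all 10 genes together, up in naive libraries and down in the other panels.

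Whether the response itself differed was tested by the interaction of graft and treatment. No member was called by edgeR's quasi-likelihood test, and none had an unadjusted p under 0.05, where 19.8% of tested genes were called in either direction and 2.84% lower. The difference in response, Sox2Hi minus control, ran from -0.64 ± 0.31 for H2-D1 (95% interval -1.32 to 0.04) to 0.19 ± 0.23 for Nlrc5 (-0.31 to 0.69). It was 0.00 ± 0.24 for Psmb9 and -0.04 ± 0.23 for Psmb8. With the all-gene scaling 7 members were called lower, against 16.2%: H2-K1, H2-D1, B2m, Tap2, Tapbp, Psmb8 and Psmb10, from -0.85 for Psmb8 to -1.45 for H2-D1. DESeq2 called H2-K1, H2-D1 and B2m, at -0.73, -0.89 and -0.64, against 15.1% called lower, and limma-voom called none, against 5.82% called lower. Without control treated replicate 2, which left a single library in that group, the difference for H2-D1 was -1.17.

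Other genes of the pathway were counted from 4 lists, and those with the largest and smallest changes in treated control tumours are named. Beside the counts of genes called higher in these lists stand the 24.1% of all tested genes in control and the 15.0% in Sox2Hi tumours. Of 8 genes for loading and trimming, 2 were called higher in control tumours: Tapbpl, a tapasin-like peptide editor, at 1.66, and Erap1, the aminopeptidase that trims peptides in the endoplasmic reticulum, at 0.91. The median of the list was 0.02. The chaperones Calr and Pdia3 had changes of -0.27 and -0.31, neither called. In Sox2Hi tumours Tapbpl was called higher, at 1.47, and the chaperone Canx was called lower, at -0.62, a call lost with the all-gene scaling. The direction of these chaperones in control tumours flips with the all-gene scaling, to 0.26 for Calr and 0.22 for Pdia3. Of 8 proteasome partners, the activator subunits Psme2 and Psme1 were called higher, at 1.47 and 1.00 in control and at 1.15 and 0.81 in Sox2Hi tumours, while Psmb6 and the core subunit Psma7 had -0.01 and 0.14 in control tumours. The call of Psme1 in Sox2Hi tumours was lost with the all-gene scaling. Under that scaling 6 of the 8 proteasome partners and 4 of the 8 genes for loading and trimming were called higher in control tumours, against 18.7% of all tested genes, and 1 of each list in Sox2Hi tumours, against 1.79%.

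Of 11 regulators 9 were tested, and 6 were called higher in control and 3 in Sox2Hi tumours, against the same 24.1% and 15.0% of all tested genes. Irf2, an interferon regulatory factor, rose by 2.04 and 1.46. Ciita, the class II counterpart of Nlrc5, and Nfkb1 had 0.05 and 0.25 in control tumours, neither called. The medians over the tested regulators were 0.79 and 0.64.

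Of 9 genes that are near copies of the heavy chains, 6 were tested. In each tumour 5 of them were called higher, against 24.1% of all tested genes in control and 15.0% in Sox2Hi tumours, by as much as 3.27 in control and 3.01 in Sox2Hi tumours for H2-Q6. H2-Q4 was called lower in control tumours, at -0.65, and higher in Sox2Hi tumours, at 1.30. H2-Q4 was not called in control tumours, at -0.09, with the all-gene scaling, under which 8 near copies were tested and 5 were called higher in control and 4 in Sox2Hi tumours, against 18.7% and 1.79% of all tested genes.

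The gene outside the members whose profile was nearest to their mean was H2-T23, a nonclassical class I heavy chain. The measure was the root mean square difference of centred log2(CPM + 1) values over the 10 libraries, 0.110 for H2-T23, against a median of 0.690 over 7200 candidates with a mean of at least 10 CPM. Ncoa1 at 0.112, Idnk at 0.114, Ifi35 at 0.137 and Stat2 at 0.139 followed. Among the members themselves H2-K1 was nearest to the mean at 0.106 and Psmb9 farthest at 0.272. The points are libraries of 4 groups and share the treatment difference, so the likeness is a description only.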

How the data were processed

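Bulk RNA-seq was available for 10 libraries. RNA was extracted with a microprep kit and libraries were made with a low-input kit, per the labels' protocols. The authors deposited 1 table of estimated counts per gene. The submitters' processing notes name kallisto 0.44.0 and mm10, which is GRCm38; strandedness and the step from transcripts to genes are not given in the sources used here. Values are whole numbers, so rounding by the authors before they were deposited is possible but not stated. A further 96 entries that are not mouse genes were left out. Columns were matched to libraries by the labels' descriptions, and CPM was computed from the counts. Symbols and coordinates came from GENCODE M21, which matched 55144 of 55385 identifiers, and promoters from RefSeq GRCm38.p6.

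The 11274 genes whose mean reached 5 CPM were fitted over all 10 libraries with the 4 groups as terms in edgeR 4.0.16 (R 4.3.3), with TMM factors from those genes and the quasi-likelihood F-test. A gene counts as called where the p-value, adjusted by Benjamini and Hochberg's method over all tested genes, is under 0.05. A standard error is the log2 change over the root of its F. Ratios were tested by exact permutation within tumours. The members, gene lists and tests were chosen with earlier results of these data known. The genes named outside the members are, in each list, the 2 with the largest and the 2 with the smallest absolute change on treatment in control tumours, and the 5 with the profile nearest to the members' mean. A regulator that this rule names and a promoter motif that was searched are not reported here. Canx, Psmb5, Psmb7 and the near copies singled out were named after their values were seen. So were single cell type markers such as Il1r2, S100a8, Nkg7, Cd4, Cd8a, Cd209a, Csf1r, Adgre1, Flt3, Krt8, Epcam and Cdh1.

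Expected background is exon length times the median rate over 1421 silent olfactory and vomeronasal receptor genes. Pathway lists come from general knowledge. The edgeR fit of treatment in control tumours and the permutation test were run on simulated data with planted changes. Replicates differed by at least 12.5 times counting noise (chi-square per degree of freedom). The description of control treated replicate 1 carries a replicate number of another form than the other libraries' descriptions. Deviations from group means of naive libraries with the same title number correlated at 0.273, 0.325 and 0.474 across genes. Treated libraries with the same title number correlated at -0.0952. Differently numbered naive libraries were not compared, so this check does not establish a pairing, and the labels do not state one. The alternatives were the all-gene scaling, RLE factors, library totals, no filter, DESeq2 1.42.0, limma-voom (limma 3.58.1), replicate blocks, groups alone, background subtraction and each library left out.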

Additional observations from a re-analysis of the deposited data

Results flagged for a closer look

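The proteasome activator subunit Psme3 responded differently in the tumours of different grafts. It was at 9.99, 11.7 and 16.4 CPM in naive and 23.1 and 13.1 in treated libraries of control tumours, and at 25.9, 35.0 and 32.1, and 12.5 and 20.7, in those of Sox2Hi tumours. Its treatment response in Sox2Hi minus control tumours was -1.41 on the log2 scale (adjusted p = 0.04 by edgeR's quasi-likelihood test). It was -2.201 with the all-gene scaling (adjusted p = 0.00768), and -1.57 with background subtracted, where the call was lost (adjusted p = 0.055).

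The class I relative H2-Q4 moved in opposite directions on treatment, from 19.9, 28.3 and 18.4 to 15.4 and 12.9 CPM in control tumours and from 10.03, 10.8 and 8.60 to 24.7 and 23.7 in Sox2Hi tumours. The response in Sox2Hi minus control tumours was 1.95 (adjusted p = 0.0012 by edgeR's quasi-likelihood test). It was 1.12 with the all-gene scaling.

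Among the entries that are not mouse genes, the reporter sequence tdTomato had reads in every library, from 135 to 514. These are raw reads, not scaled to depth, and the 514 were in the library with the highest total, 22986193 counts.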

How the results depend on the processing

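The number of members called differed with the scaling, and the cause was not tested. On treatment in control tumours it was 10 under every alternative except library totals, where it was 9 without Psmb10. With the all-gene scaling 6 were called on treatment in Sox2Hi tumours, 0 between naive tumours (edgeR, 4 at an unadjusted p under 0.05), 5 between treated tumours and 7 for the difference in response. Between naive tumours 0 were called with RLE factors, library totals or the groups compared alone, 1 with no filter or with background subtracted, and 5 with limma-voom. Between treated tumours 0 were called with library totals, the groups compared alone or background subtracted, 1 with no filter or limma-voom, and 5 with DESeq2, which called 3 for the difference in response. With a replicate block by the number in the descriptions 0 were called between treated tumours. With the block by the number in the titles no count of called members changed. Leaving out each library gave 10 to 10 calls on treatment in control tumours, 4 to 10 in Sox2Hi tumours, 0 to 2 between naive tumours, 0 to 2 between treated tumours and 0 to 1 for the difference in response.

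Of 1000 values of single members under an alternative, 59 changed sign, and none was called before or after. With library totals the signs that turned gave, between treated tumours, H2-D1 0.0072, Tap1 0.12, Tap2 0.015, Tapbp 0.10 and Psmb10 0.092, between naive tumours Tap1 0.014 and Psmb10 0.10, and for the difference in response Tap1 0.11 and Psmb8 0.13. With the all-gene scaling they were Tap1 0.26 and Psmb10 0.35 between naive tumours, and Psmb9 -0.80 and Nlrc5 -0.62 for the difference in response. Both RLE factors and DESeq2 gave Psmb10 0.050 (DESeq2 0.051) between naive tumours, and Psmb9 -0.24 and Nlrc5 -0.051 for the difference in response. With limma-voom they were Tap1 0.23 and Psmb10 0.27 between naive tumours, and Psmb9 -0.17 for the difference. With the description block they were Tap1 0.071, Tap2 0.099 and Psmb10 0.069 between treated tumours, and Tap1 0.18, Psmb8 0.086 and Psmb10 0.094 for the difference. With the title block Psmb9 was -0.0018 for the difference, and in the naive libraries alone Psmb10 was 0.031 between grafts. Psmb10 was 0.021 between naive tumours with the groups compared alone, and Psmb8 was 0.0052 for the difference with background subtracted.

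Leaving out each library moved H2-K1 from -0.067 to 0.16, Tap1 from -0.27 to 0.027, Tapbp from -0.084 to 0.19 and Psmb10 from -0.17 to 0.12 between naive tumours. Between treated tumours it moved H2-D1 from -0.74 to 0.019, Tap1 from -0.59 to 0.093 and Tap2 from -0.74 to 0.079. For the difference in response it moved Tap1 from -0.57 to 0.12, Psmb8 from -0.34 to 0.081, Psmb9 from -0.38 to 0.092 and Nlrc5 from -0.14 to 0.29. The log2 ratio changes ran from 1.19 to 1.36 for Psmb8/Psmb5, 1.51 to 1.91 for Psmb9/Psmb6, 0.98 to 1.35 for Psmb10/Psmb7, 0.18 to 0.42 for H2-K1/H2-D1, -0.38 to -0.026 for (H2-K1+H2-D1)/B2m and -0.027 to 0.11 for Tap1/Tap2, with fewer arrangements in each test. Groups of 2 and 3 libraries limit all of these comparisons.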
